A study of Mus musculus with 4 samples.

Results

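Purinergic receptors and the calcium-dependent kinase Camk4 were measured in mouse embryonic fibroblasts (MEFs) transfected with Dlx3, a homeobox transcription factor. The members were chosen by name, as every spot whose description begins with "Purinergic receptor", together with the spot for Camk4. This gave 9 genes out of 16463 transcript probes, with 1 spot per gene on each array. P2rx1 and Camk4 were chosen because they were higher in transient transfectants, so their transient values are given as a description, with no test. For the same reason no test is given for any member on the transient arrays.

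Each of the 4 two-colour arrays set Dlx3-transfected cells (Cy5) against control cells (Cy3) on 1 slide. In the stable group (n = 2 arrays), MEFs carrying a Dlx3 expression plasmid were set against MEFs carrying an empty plasmid. In the transient group (n = 2 arrays), MEFs transfected for 24 h were set against control MEFs, and whether those received an empty plasmid is not given in the sources used here. Promoter, clone number and MEF strain are likewise not given. The second array of each group is labelled a biorepeat, but nothing says that the cells came from separate embryos or cultures, so p-values measure only the spread between these arrays. No array swapped the dyes, and any dye bias of a given probe is therefore part of its ratio.

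Extracellular ATP and related nucleotides act on cells through 2 receptor classes. P2X receptors are ATP-gated cation channels that admit calcium directly, whereas P2Y receptors are coupled to G proteins, and several of them release calcium from internal stores. Calcium bound to calmodulin then activates a cascade of kinases, among them CaMKIV, the product of Camk4, which phosphorylates the transcription factor CREB in the nucleus. The array carried probes for the channels P2rx1, P2rx4, P2rx5, P2rx6 and P2rx7 and for the G-protein-coupled receptors P2ry1, P2ry2 and P2ry12. A RefSeq accession named each member except P2ry12, which was named from its description. P2rx6 is listed in the files under an older name, P2X-like 1, orphan receptor.

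Values below are spot intensities in arbitrary scanner units. A channel counted as above local background when its median foreground exceeded the median of the surrounding background by 2 background SDs. Log2 ratios are of the Dlx3 over the control channel after background correction and loess normalization. A call is a limma adjusted p under 0.05 over all 14611 probes tested in the stable contrast. In that contrast 22.7% of all tested probes were called, 11.6% higher and 11.1% lower, so a count near those shares is not a result about the members.

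In stable transfectants 2 of the 8 tested members were called, both higher (P2rx6 and P2rx1), 0 were lower and 6 did not pass. P2rx7 was not tested because it was above background on no array. The median log2 ratio of the tested members was 0.15, against 0.01 over all tested probes. The P2rx1 spot passed the filter on dim probes only through the Dlx3 channel of the transient arrays, where it is high, and neither of its channels was above background on either stable array. P2rx6 was therefore the only called member with measured signal on both sides of the stable comparison. By contrast, the large transient ratios were of P2rx1 and Camk4, and those ratios chose these 2 genes.

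The sequences just upstream and around the start of the 2 called channel genes, and of P2rx4, are shown because Dlx3 is a DNA-binding homeodomain factor. Only the motif TAATT was searched for, and other sites that homeodomain factors bind were not. Each window is from RefSeq (GRCm38.p6) and spans 250 bases before to 50 bases after an annotated start, on the plus strand of the genome for these 3 genes. The windows lie at chr16:17561635-17561934 (P2rx6), chr11:72998895-72999194 (P2rx1) and chr5:122707294-122707593 (P2rx4). Capitals mark a TAATT match on either strand.
P2rx6: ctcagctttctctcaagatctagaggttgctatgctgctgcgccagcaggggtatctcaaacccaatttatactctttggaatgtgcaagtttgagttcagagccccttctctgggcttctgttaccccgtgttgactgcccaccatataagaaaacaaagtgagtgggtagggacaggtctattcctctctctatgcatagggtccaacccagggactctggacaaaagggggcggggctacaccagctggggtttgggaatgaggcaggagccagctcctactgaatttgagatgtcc
P2rx1: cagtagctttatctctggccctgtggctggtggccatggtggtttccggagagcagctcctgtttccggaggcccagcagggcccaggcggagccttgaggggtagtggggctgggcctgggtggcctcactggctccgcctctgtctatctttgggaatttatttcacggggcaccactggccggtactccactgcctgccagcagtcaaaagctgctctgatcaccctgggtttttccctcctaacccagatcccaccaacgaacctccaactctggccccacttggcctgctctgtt
P2rx4: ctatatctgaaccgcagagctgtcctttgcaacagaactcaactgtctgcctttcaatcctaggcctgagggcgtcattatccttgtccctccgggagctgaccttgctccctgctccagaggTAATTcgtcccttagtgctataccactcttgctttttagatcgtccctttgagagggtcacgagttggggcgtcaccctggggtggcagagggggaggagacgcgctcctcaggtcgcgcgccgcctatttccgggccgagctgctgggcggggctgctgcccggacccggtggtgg
The P2rx4 window held 1 match, at bases 124 to 128, and the P2rx6 and P2rx1 windows held none. Windows were found for 7 of the 8 receptor genes (9 windows in all, since P2rx7 and P2ry2 each have 2), and the P2rx4 window was the only one with a match. The motif TAATT, or its complement AATTA, occurred in 27% of all 32851 windows of this kind. A match is a description of the letters and shows no binding, and windows without one say nothing about sites elsewhere.

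The array carries 192 spots of randomized oligonucleotides, which have no intended target. Their net intensity (mean foreground minus median local background) fell into 2 classes. The same 16 of them were the brightest 16 in both channels on all 4 arrays, with medians of 1155 to 3263 in the Dlx3 channel. The other 176 had medians of 27.0 to 66.5 in that channel and 95th percentiles of 119 to 275. This division was made after the values were seen. None of the 9 members exceeded the 95th percentile of all 192 spots on any array, a level that the 16 bright spots set. Against the 176 dim spots, Camk4, P2rx4, P2rx5, P2rx6, P2ry1 and P2ry2 exceeded the 95th percentile in both channels on 4 of 4 arrays. P2rx1 did so only in the Dlx3 channel of the 2 transient arrays, and P2rx7 and P2ry12 on no array. No member spot had a saturated pixel.

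**Figure D1:**
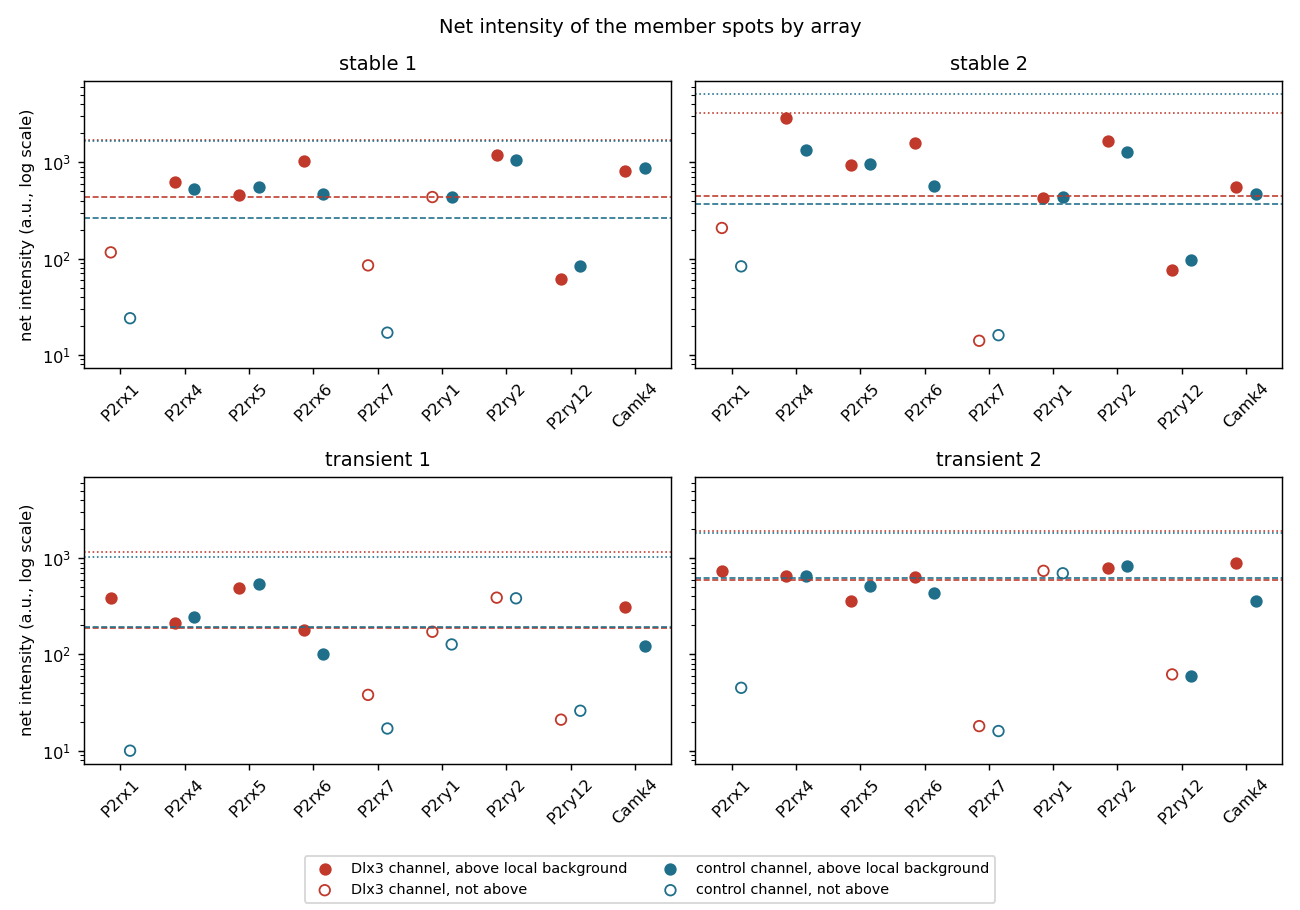
Net intensity (arbitrary units, log scale) of the 9 member spots on each array, in the Dlx3 channel (red) and the control channel (blue). Filled points were above local background. Dashed lines mark the brightest of the 176 dim randomized spots and dotted lines the median of the 16 bright ones, per channel. The control channel of P2rx1 is an open, low point on every array, while its Dlx3 channel is filled on the 2 transient arrays.

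P2rx1, the ATP-gated channel best known from smooth muscle and platelets, had mean Dlx3-channel intensities of 551 and 901 on the transient arrays, over local backgrounds of 162 and 164. Its control channel read 130 and 176 there, over backgrounds of 120 and 131, and was not above background on either array. On the stable arrays the Dlx3 channel read 222 and 314 over backgrounds of 106, and the control channel read 153 and 255 over 129 and 172. Only the Dlx3 channel of the transient arrays therefore passed the cut for detection, which rises with the spread of the local background. In this channel the cut was 820 and 2106 on the stable arrays, against 294 and 262 on the transient arrays. Medians as high as the transient ones (374 and 801) would have failed both stable cuts. The stable arrays could thus not have detected a P2rx1 signal of that size. On the transient arrays the Dlx3 channel lay above 92.2 and 91.7% of the 192 randomized spots, and above each of the 176 dim ones on both arrays. On the stable arrays the Dlx3 channel lay above 72.4 and 80.2% of all 192 spots. The control channel lay above 0.521 and 41.1% of all 192 spots on the transient arrays and above 8.85 and 43.8% on the stable arrays.

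The log2 ratios of P2rx1 were 2.60 and 2.91 on the transient arrays and 1.06 and 0.88 on the stable arrays. All 4 were positive, as was so for 19.7% of tested probes. The transient mean was 2.76 ± 0.22 (SD, n = 2), and it ran from 2.13 to 4.58 with the method of background correction. Since the control signal was undetected, a nominal bound of 6.47-fold higher in the Dlx3 channel was computed. It depends on the background correction, and without any correction the ratio, 2.13 on the log2 scale, was below it. For this bound the dim side was, on each array, the larger of the lowest detected control signal over all transcript spots and that of the P2rx1 spot. Levels were on loess and Aquantile normalized channels, a scale open to dye bias. The share of tested probes over 2-fold higher on both transient arrays was 0.0753%, or 11 probes, P2rx1 among them. In stable transfectants limma gave P2rx1 a mean of 0.97 ± 0.13 (n = 2, adjusted p = 0.00745), but with both channels undetected no fold is given and the call has no measured level behind it.

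The spot from which the transient P2rx1 values were read was small. The scanner software assigned it 12 foreground pixels (a diameter of 40 micrometres) on both transient arrays, while its stable spots had 32 and 156 pixels. The median transcript spot had 80 pixels on every array, and 12 was the lowest number found. On the transient arrays 159 and 125 transcript spots, 0.955 and 0.751%, were that small, and 18 of them were so on both arrays. Across those small spots the SD of the log2 ratio was 0.52 and 0.53, against 0.22 and 0.22 in spots of 40 pixels or more. P2rx1 was the only 1 of the 18 that was over 2-fold higher on both arrays, and the next highest mean among them was 1.30. The gene was chosen on these ratios, and no transcript spot of any size had a higher one on either transient array. Its place among the 18 was therefore fixed in advance. None of these spots was flagged by the scanner software. The part of spot size in the P2rx1 result was not tested.

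**Figure D2:**
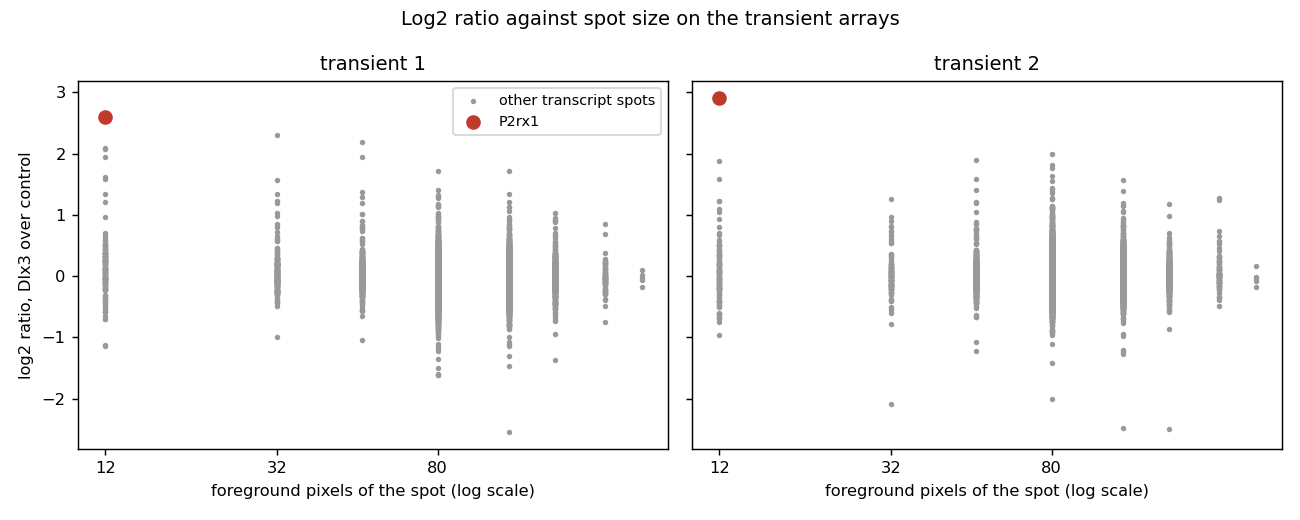
Log2 ratio (Dlx3 over control) against the number of foreground pixels (log scale) for each transcript spot on the 2 transient arrays, with P2rx1 in red. P2rx1 sits at 12 pixels with ratios of 2.60 and 2.91.

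Within the P2rx1 spot on the first transient array, the median over pixels was lower than the mean (374 against 551 in the Dlx3 channel), and on the second the median was 801 against a mean of 901. In that channel 50% of the pixels on the first array and 100% on the second were over 2 background SDs above background. With medians in place of means the transient log2 ratio was 2.41. The surroundings differed between the groups. The SD of the local background in the Dlx3 channel was 357 and 1000 in the stable group but 66 and 49 in the transient group. The 8 spots bordering P2rx1 in its block had log2 ratios of -0.12 to 0.19 on the first transient array and -0.10 to 0.16 on the second. Since no transcript spot had a higher ratio than P2rx1 on either array, its border could not have exceeded it. The part of the surroundings was not tested. On the stable arrays the bordering spots ran from -0.10 to 0.65 and from -0.09 to 0.55. In the authors' deposited table, P2rx1 stood at -0.084 and -0.071 on the transient arrays, that is at control over Dlx3 pixel ratios of those sizes with a minus sign.

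Camk4, a kinase abundant in neurons and T cells that links calcium to CREB, was detected above background on all 4 arrays in both channels, from spots of 120 to 156 pixels. On the transient arrays its mean intensities were 445 and 1029 in the Dlx3 channel and 234 and 494 in the control channel. On the stable arrays they were 921 and 681 in the Dlx3 channel and 1008 and 669 in the control channel. The Dlx3 channel was thus the brighter of the pair on both transient arrays and on the stable arrays it was the dimmer on the first and close to the control on the second. The Dlx3 channel exceeded each of the 176 dim randomized spots on 4 of 4 arrays and the control channel on 2 of 4. On the transient arrays the control channel had net intensities of 123 and 363, below the brightest dim spots at 191 and 627. The transient log2 ratios of Camk4 were 0.95 and 1.17, a mean of 1.06 ± 0.15 (2.09-fold, n = 2), given without a test. On the stable arrays they were -0.11 and 0.17, a mean of 0.03 ± 0.20 (limma adjusted p = 0.862, 95% confidence interval -0.22 to 0.27). The means differed by -1.04 (stable minus transient), a difference not tested since the transient arrays chose the gene. The stable value was -0.11 when the second array was left out.

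The 8 spots bordering Camk4 had medians of 0.11 and 0.00 on the transient arrays, with highest values of 0.54 and 0.45. None reached the ratio of Camk4 on either, but the gene was chosen for its high ratio there, so this is no test of its surroundings. On the second stable array, by contrast, a bordering spot read 1.05 where Camk4 read 0.17. Normalized log2 intensities of Camk4 across the 4 conditions were 9.58 ± 0.76 in transient Dlx3 cells, 9.16 ± 0.46 in stable Dlx3 cells, 9.13 ± 0.66 in empty-plasmid cells and 8.52 ± 0.60 in control MEFs (SD, n = 2 each). No neighbours in this order differed by more than the larger of their SDs. The ratios within an array spread less, with SDs of 0.15 and 0.20. For P2rx1 the order was transient Dlx3 cells (9.56 ± 0.38), stable Dlx3 cells (7.51 ± 0.28), control MEFs (6.81 ± 0.16) and empty-plasmid cells (6.54 ± 0.40), the last 3 from undetected signals.

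**Figure D3:**
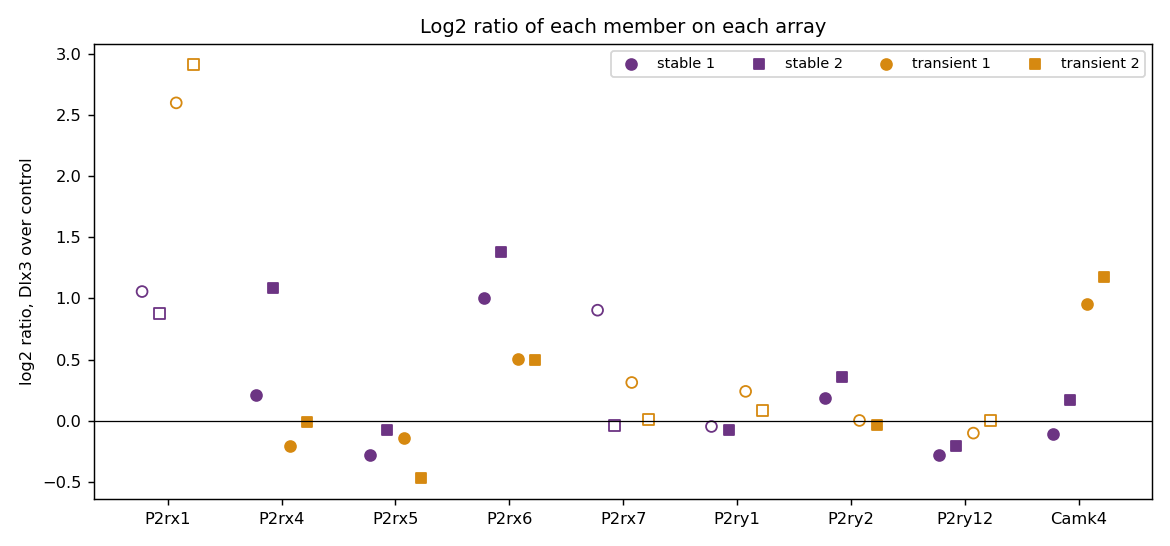
Log2 ratio (Dlx3 over control) of each member on the 2 stable arrays (purple) and the 2 transient arrays (orange), with circles for the first and squares for the second array of a group. Open symbols mark spots with at least 1 channel not above local background. P2rx6 is positive and filled on all 4 arrays, Camk4 is near 1 only on the transient arrays, and every P2rx1 symbol is open.

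P2rx6, a channel subunit that works mainly in complexes with other P2X subunits, rose in stable transfectants. Its mean intensities on the stable arrays were 1119 and 1696 in the Dlx3 channel and 617 and 738 in the control channel. On the transient arrays they were 306 and 760 in the Dlx3 channel and 214 and 565 in the control channel. The Dlx3 channel was the brighter of the pair on all 4 arrays, and both channels were above background on each, from spots of 80 to 120 pixels. The log2 ratios were 1.00 and 1.38 on the stable arrays, a mean of 1.19 ± 0.26 (2.28-fold, n = 2, limma adjusted p = 0.00529, 95% confidence interval 0.94 to 1.44). The share of tested probes over 2-fold higher on both stable arrays was 0.212%. The transient ratios were 0.50 and 0.49, a mean of 0.50 ± 0.01 (1.41-fold), given without a test. The stable rise was called under each of the alternatives that gave it a value, with ratios of 0.98 to 1.38 and adjusted p of 0.00165 to 0.0259.

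P2rx6 levels on the normalized log2 scale were 10.03 ± 0.38 in stable Dlx3 cells, 9.04 ± 0.87 in transient Dlx3 cells, 8.84 ± 0.11 in empty-plasmid cells and 8.54 ± 0.88 in control MEFs. Only the first stood apart from its neighbour in that order by more than both SDs. The control channel of the first transient array lay above 88% of the randomized spots, and all other P2rx6 values above 91.1 to 92.7% of them. The Dlx3 channel exceeded each of the 176 dim randomized spots on 3 of 4 arrays and the control channel on 2 of 4. In the authors' deposited table P2rx6 stood at -0.472 and -0.353 on the stable arrays and at -0.514 and -0.683 on the transient arrays, which is the control over Dlx3 pixel ratio with a minus sign.

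P2rx4, a channel of the plasma membrane and of lysosomes, was detected on all 4 arrays in both channels and differed between the stable arrays. Its Dlx3 channel read 719 and 2991 there and its control channel 655 and 1536. The log2 ratios were 0.21 and 1.08, a mean of 0.65 ± 0.62 that was not called (adjusted p = 0.0591), while its transient ratios were -0.21 and -0.01. Without the first stable array the value was 1.08 (adjusted p = 0.00628), and without the second it was 0.21 (adjusted p = 0.216). Here and in every later value with 1 stable array left out, the lone stable array is assumed to vary like the transient pair, which alone gives the spread. The SD of the local background of P2rx4 on the second stable array was 838 in the Dlx3 channel. P2rx5, another channel subunit, read slightly lower on all 4 arrays, at -0.28 and -0.08 in the stable group and -0.14 and -0.47 in the transient group. Its stable mean of -0.18 ± 0.14 was not called (adjusted p = 0.259), and print-tip loess turned it to 0.17 (adjusted p = 0.184).

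P2rx7, the channel that opens at high ATP and activates the inflammasome in macrophages, was not above background in any channel on any array. Its mean intensities ranged from 105 to 184 (Dlx3) and from 121 to 165 (control), and 3 of its 4 spots were marked as not found by the scanner software. Its first stable array read 0.90 from an undetected spot of 32 pixels, and its other ratios were -0.04, 0.31 and 0.01. No fold is given for it.

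Among the G-protein-coupled receptors, P2ry2, which responds to ATP and UTP, read 1304 and 1762 in the Dlx3 channel and 1190 and 1462 in the control channel of the stable arrays, all above background. Its stable ratios of 0.19 and 0.36 gave a mean of 0.27 ± 0.12 that was not called (adjusted p = 0.0567), and its transient ratios were 0.00 and -0.04. The scanner software marked its spot as not found on the first array of each group. With marked spots left out the stable value, from 1 array, was 0.36 and was not called (adjusted p = 0.107), whereas leaving out the whole first stable array gave the same value as a call (adjusted p = 0.032). On the first transient array P2ry2 was above background in neither channel. P2ry1, an ADP receptor that releases stored calcium, read 534 and 522 in the Dlx3 channel and 566 and 603 in the control channel of the stable arrays. The Dlx3 channel was not above background on the first of them, where the background SD was 377. The ratios of P2ry1 there were -0.05 and -0.08 (mean -0.06 ± 0.02, adjusted p = 0.588, 95% confidence interval -0.26 to 0.13). On the transient arrays P2ry1 was not above background in either channel, with background SDs of 674 and 460 in the Dlx3 channel, so its ratios of 0.24 and 0.08 have no detected level behind them.

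P2ry12, the ADP receptor of platelets and microglia, was dim. On the stable arrays it read 158 and 168 in the Dlx3 channel and 219 and 267 in the control channel, above local background but above only 49.0 to 60.9% of the randomized spots. Its stable ratios of -0.28 and -0.21 (mean -0.25 ± 0.05, adjusted p = 0.0647) did not pass, and print-tip loess brought the value to -0.29 (adjusted p = 0.0408). On the transient arrays the ratios were -0.10 and 0.00, with the Dlx3 channel above background on neither array and the control channel on 1.

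The 5 tested probes with a symbol whose 4 log2 ratios lay closest to those of Camk4, by Euclidean distance over the 4 arrays, were Apod (distance 0.21), Sfrp1 (0.34), Ctsc (0.42), Serf1 (0.50) and Tgfbi (0.56). All had transient ratios of 0.69 to 1.13 and stable ratios of -0.19 to 0.39. Apod encodes a lipid carrier, Sfrp1 a secreted WNT antagonist and Tgfbi a matrix protein induced by TGF-beta. The Serf1 spot, like that of P2rx1, had only 12 pixels on at least 1 array. No probe among the 11131 searched lay close to P2rx1, whose nearest were Alkbh3os1 (2.26), Cthrc1 (2.40), Aspn (2.42), Chrdl1 (2.58) and another Sfrp1 probe (2.59). Likeness over 4 arrays that share dyes and controls is a description, and no p is given.

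Among genes for nucleotide release and breakdown, 4 of 17 tested probes rose in stable transfectants, 1 fell and 12 did not pass, against 22.7% called over all tested probes. Enpp2, which makes lysophosphatidic acid, rose by 1.77 ± 0.10 (SD, n = 2, limma adjusted p = 0.00239), and Enpp1, which cuts ATP to pyrophosphate, by 1.30 ± 0.47 (adjusted p = 0.0126). Alpl, the phosphatase that degrades nucleotides and pyrophosphate, rose by 0.77 ± 0.06 and the ectonucleotidase Entpd1, which removes ATP and ADP, by 0.42 ± 0.06 (adjusted p = 0.0119 and 0.0209). Another Entpd1 probe, at 0.20 and 0.08 on the stable arrays, was too dim to be tested, with its control channel above background on no array. The lower probe was Entpd6 (-0.29 ± 0.03, adjusted p = 0.0462), named after its value was seen. The list median was -0.01. Enpp1 read 0.98 and 0.38 on the transient arrays, with both channels above background on 2 of the 4 arrays.

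Of the 4 adenosine receptors on the list only Adora2b had a probe, and it rose in stable transfectants by 0.56 ± 0.09 (adjusted p = 0.0126), at 0.50 and 0.63. Its transient ratios were 0.02 and -0.14. Among G proteins, phospholipases C and calcium stores, 2 of 17 tested probes rose, 1 fell and 14 did not pass, with a median of 0.03. The share called was 17.6%, against 22.7% over all tested probes. Stim1, the calcium sensor of the endoplasmic reticulum, rose by 0.55 ± 0.27 and the calcium pump Atp2b1 by 0.52 ± 0.43, at 0.21 and 0.82 (adjusted p = 0.0209 and 0.0476). Plcb3, a phospholipase C that P2Y receptors act through, fell by 0.33 (SD 0.17, adjusted p = 0.0464). The calls of Stim1 and Atp2b1 ended when stable array 2 was left out (adjusted p = 0.0573 and 0.149), and that of Plcb3 without array 1 (adjusted p = 0.133).

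Calmodulin and its kinases had 0 of 9 stable probes higher, with 2 lower and 7 that did not pass, with a median of -0.20. The shares called were 22.2% here, 40% for the CREB list and 14.3% for calcineurin and NFAT, against 22.7% over all tested probes. The differences between these shares were not tested. The kinase Camk2a fell by 0.40 (SD 0.04, limma adjusted p = 0.0446). For the CREB family, its coactivators and targets, 3 of 10 tested probes rose, 1 fell and 6 did not pass, with a median of 0.05. The immediate early genes Nr4a1 and Fos rose by 1.33 ± 0.55 and 0.97 ± 0.37 (adjusted p = 0.0104 and 0.0102), and Creb1 fell by 0.33 (SD 0.06, adjusted p = 0.0293). For the coactivator Crtc2 the probes disagreed, with a rise of 0.37 ± 0.01 (adjusted p = 0.0209) for 1 probe and -0.11 (adjusted p = 0.387) for the other. Calcineurin and NFAT genes had 0 higher, 1 lower and 6 not passing of 7, the lower one being Nfatc4, a calcium-responsive transcription factor, at -0.54 ± 0.23 (adjusted p = 0.0327). Leaving out either stable array ended the calls of Camk2a and Entpd6, leaving out the first ended that of Creb1, and leaving out the second ended those of Entpd1 and Nfatc4.

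**Figure D4:**
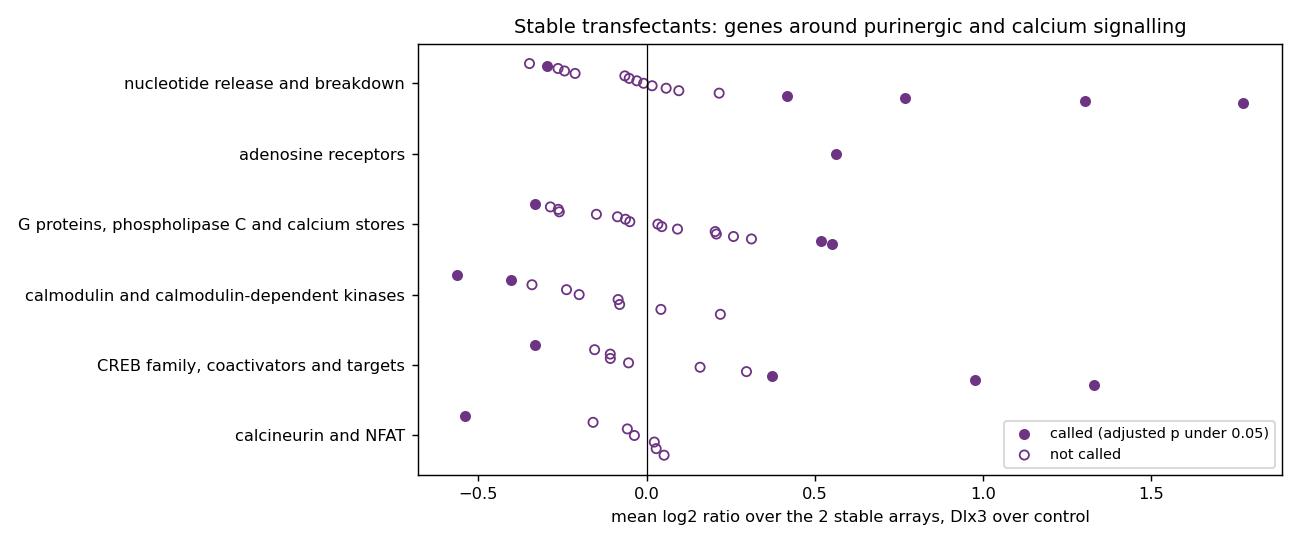
Mean log2 ratio (Dlx3 over control, 2 stable arrays) of each tested probe in the 6 lists around purinergic and calcium signalling, with 1 point per probe. Filled points were called by limma. Enpp2, Nr4a1 and Enpp1 lie farthest to the right at 1.77, 1.33 and 1.30.

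On the transient arrays limma called 0 probes of these 6 lists, against 0.144% of all tested probes. At an unadjusted p under 0.05 there were 6 of 17 for nucleotide release and breakdown, 2 of 17 for G proteins and stores, 3 of 10 for CREB and 0 of 1, 9 and 7 for the other lists, beside 2958 of all 14613 tested probes. The list medians lay between -0.07 and 0.10. Fos, at 0.82 and 0.73, had the highest transient mean among the list probes.

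Dlx3 itself read 0.06, 0.23, 0.14 and 0.56 on the 2 stable and then the 2 transient arrays, and was not called in either group (adjusted p = 0.396 and 0.179). Of the fibroblast markers, Vim, Col1a2, Pdgfrb and Dcn were detected on all 4 arrays in both channels, out of 6 genes with a probe. Since P2rx1 marks platelets and smooth muscle and Camk4 marks T cells and neurons, the markers of those cells are given beside them. Their summed net intensity in the Dlx3 channel on the transient arrays was 39762 and 33140 for 5 smooth muscle probes, against 44562 and 36700 in the control channel. For 8 platelet probes it was 14561 and 17300 against 14876 and 22323, most of it from Gp1bb. For 5 leukocyte probes it was 495 and 647 against 401 and 669, and for 4 neuron probes 1141 and 2079 against 1141 and 2400. Among the leukocyte probes Cd14 and Cd4, the brightest tested, were above background in the control channel on 4 of 4 arrays and Ptprc on 3. Cd3e, which defines T cells, was so on 1 of 4 arrays and Itgam on none. In the stable group the fibroblast markers Dcn and Pdgfra rose (1.00 and 0.98, both adjusted p = 0.00427) and the other 4 did not pass. There 3 smooth muscle probes fell, led by Acta2 and Tagln (-1.62 and -1.16), the platelet probe Gp5 rose while Gp1ba and Pf4 fell, and 1 neuron probe, Tubb3, fell. The calls of Gp5, Gp1ba and Pf4 (limma adjusted p = 0.0403, 0.0216 and 0.0429) held under 10 of 18, 14 of 18 and 6 of 17 alternatives. Over all tested probes 22.7% were called in the stable group. In bulk samples fewer cells of a type and less RNA per cell cannot be told apart, and the part of cell mixture in the member values was not tested.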

How the data were processed

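The authors deposited scanner intensities for 4 two-colour arrays, read with GenePix Pro 5.0.0.49 per the file headers, with 1 file per array and no pooling. Per the file headers each spot also has the percent of its pixels above background or saturated, its pixel count and diameter, and a median of pixel ratios of Cy3 over Cy5. The score in the authors' deposited value table equals minus that ratio at every value within 0.0005, is not log transformed, and is empty for flagged spots. No genome build or probe sequence is given in the sources used here.

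Mean foreground was corrected for median local background with normexp (offset 50), normalized by loess (span 0.3) with control spots at weight 0, and averaged over repeats of a probe with limma 3.58.1 in R 4.3.3. A probe was tested when at least 2 arrays had a channel whose median foreground was over 2 background SDs above the background median. Both groups shared 1 fit (lmFit and eBayes, Benjamini-Hochberg adjustment over all tested probes). The fit was tested on simulated data with 200 changed probes. The number of arrays limits the precision.

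The members and gene lists were chosen with earlier results of these data known. Named genes are all members, up to 4 called genes of each list (otherwise the 2 brightest), the 5 nearest probes to P2rx1 and to Camk4, and the spots bordering them. The values of 1 called list gene are not reported here. RefSeq accessions named 6678 probes and clone names 5786, 1 was named by its description and 3998 stayed unnamed. Alternatives covered background correction, normalization, filters, the fit, spot size, the deposited values and leaving out each array. Spot size and the filter on 176 dim randomized spots were chosen after seeing the data.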

Additional observations from a re-analysis of the deposited data

Results flagged for a closer look

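P2rx4 had ratios of opposite sign in the 2 groups, with stable ratios of 0.21 and 1.08 and transient ratios of -0.21 and -0.01. The stable minus transient difference was 0.76 on the log2 scale and was not tested, and P2rx4 was not called in the stable contrast. The share of all tested probes with opposite signs in the 2 groups was not counted, so the signs are a description only.

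P2ry1 also had ratios of opposite sign, with -0.05 and -0.08 in the stable and 0.24 and 0.08 in the transient group. The stable minus transient difference was -0.22 and was not tested, and neither channel was above background on the transient arrays. The 95% confidence interval of its stable mean, -0.26 to 0.13, included 0, and here too the signs are a description only.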

How the results depend on the processing

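P2rx6 was called in stable transfectants under all 18 alternatives that gave a value. So was P2rx1, but its stable signals were undetected in both channels, so this says nothing about how stable a P2rx1 difference is. The stable value of Camk4 turned to -0.11 without the second stable array (range -0.11 to 0.17 leaving out an array), and that of P2rx5 to 0.17 under print-tip loess. The transient value of Camk4 was 1.28 with plain subtraction, 1.28 with scaling between arrays and 1.38 from the deposited values (0.95 to 1.17 leaving out an array). That of P2rx1 was 4.58 with plain subtraction, 2.13 with no background correction, 3.61 with offset 10, 2.41 with median foreground, 3.32 with scaling and 3.69 from the deposited values (2.60 to 2.91 leaving out an array), and it had no value without spots under 40 pixels. Members called in the stable contrast numbered 4 under print-tip loess, 0 (none tested) under the filter on all randomized spots, and 2 to 4 leaving out an array. Besides P2rx1 and P2rx6, P2rx4 and P2ry12 were called under print-tip loess, P2rx4 under median centring, P2ry2 under the filter on dim randomized spots, and P2rx4 and P2ry2 without the first stable array. Against 3320 probes called in the stable contrast there were 1895 with plain subtraction, 2141 with scaling, 1352 with the randomized filter, 1228 with its own group alone and 1228 to 4350 leaving out an array. Against 21 in the transient contrast there were 0 with plain subtraction, 42 with no correction, 52 with median foreground, 647 with median centring, 1400 with scaling, 12 with no filter, 78 with the randomized filter, 93 with the filter on dim randomized spots, 223 from the deposited values, 1288 with its own group alone and 3 to 1288 leaving out an array. Of the 25 called list and marker probes, 6 lost the call without the first stable array, 8 without the second and 11 with the stable group alone, and none reversed. Except for fewer samples or probes in a fit, the cause was not tested. No paired analysis was possible because the labels give no replicate numbers that the stable and transient groups share; Dlx3 and control cells are already paired within each slide by the ratio.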
